A study of Mus musculus with 2 samples.

Results

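Cpeb4, Tent5c, Pabpc1 and Pabpc4 are 4 of the 32285 genes in the marrow count tables, and each encodes a cytoplasmic protein that acts on the poly(A) tail of mRNA. They were taken by symbol as regulators of poly(A) tails in late erythroid cells, and they had been chosen by their measured DKO over control levels in these same cells. That contrast is therefore given as a description, and nothing is read from it. Femoral bone marrow was flushed with PBS, and 1 single-cell 3′ library was made for each genotype. The mice were 2 months old, by the study's account, and the number of animals behind each library is not given in the sources used here. The DKO genotype was VavCre:Ddx41 fl/fl, cGAS-/-, in which the Vav promoter drives Cre in hematopoietic cells and, by the study's own account, also in oocytes and endothelial cells. The control library is labelled WT, and the study's methods name as controls for this cross littermates with Ddx41 fl/fl but no VavCre and with wild-type cGas alleles. The genotypes thus differ at both Ddx41 and cGas, and the parts of these genes in a difference cannot be told apart. With 1 library in each group there is no test between genotypes, and every interval below covers counting error only.

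After filtering, 18645 control cells held 119285323 unique molecular identifiers (UMIs, each standing for 1 captured RNA molecule), with a median of 4891 per cell. The 13729 DKO cells held 114830668 UMIs, with a median of 6904. Ddx41 was at 20.3 CPM (UMIs of a gene for every 1000000 UMIs) in control cells and 8.003 CPM in DKO cells, a log2 ratio of -1.34 (95% interval -1.45 to -1.23). Cgas was at 13.6 and 7.25 CPM, a log2 ratio of -0.90 (-1.03 to -0.78). Both were lower in the library labelled DKO, although reads of the 3′ end do not show whether the deleted part is present. The libraries shared 81 cell barcodes, 0.423% of those called in the control and 0.573% in the DKO.

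The poly(A) tail is added in the nucleus and afterwards lengthened, shortened and bound by proteins in the cytoplasm, where its length and its binding proteins bear on translation and decay. Cpeb4 binds U-rich cytoplasmic polyadenylation elements in 3′ ends of mRNAs and is known as a translational regulator of erythroid maturation. Tent5c (formerly Fam46c) is a noncanonical poly(A) polymerase, best known from plasma cells and myeloma. Pabpc1 is the major cytoplasmic poly(A)-binding protein, and Pabpc4 is a related poly(A)-binding protein that has been linked to erythroid differentiation. Terminal erythroid cells condense and expel the nucleus while hemoglobin mRNA comes to fill the cytoplasm, so later changes of gene expression rest largely on mRNA already made.

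In GENCODE M21 (GRCm38), Cpeb4 (ENSMUSG00000020300) lies on the plus strand at chr11:31872211-31935634. Tent5c (ENSMUSG00000044468) lies on the minus strand at chr3:100451628-100489324. Pabpc1 (ENSMUSG00000022283) is on the minus strand at chr15:36595661-36609668, and Pabpc4 (ENSMUSG00000011257) is on the plus strand at chr4:123262351-123298925. The last 500 bases of the member transcripts matter here because 3′ libraries count reads from that end. For Cpeb4, Tent5c and Pabpc1, 0 stretches of 50 bases from that end recurred in transcripts of other annotated genes. For Pabpc4, 55.9% of such stretches recurred in 3 other genes (Gm10110, Gm16345 and Gm5466), none of them in the count tables, so the Pabpc4 counts are uncertain by reads that match more than 1 place.

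Promoter windows of 250 bases before to 50 bases after the start of transcription were taken from RefSeq (GRCm38.p6), which matched Cpeb4, Tent5c and Pabpc4. The windows of Cpeb4 (chr11:31870690-31870989, plus strand) and Tent5c (chr3:100489143-100489442, minus strand) are shown to set the gene that peaked in the middle of hemoglobin loading beside the one that was highest at its end. The RefSeq start of Cpeb4 lies before the GENCODE start of the gene. Both strands were searched for the GATA-factor letters AGATAA and TGATAA, for CACCC (the core of the box bound by erythroid Kruppel-like factors) and for CCAAT, and matches are in capitals. None of these motifs overlapped another within the 2 windows.
Cpeb4: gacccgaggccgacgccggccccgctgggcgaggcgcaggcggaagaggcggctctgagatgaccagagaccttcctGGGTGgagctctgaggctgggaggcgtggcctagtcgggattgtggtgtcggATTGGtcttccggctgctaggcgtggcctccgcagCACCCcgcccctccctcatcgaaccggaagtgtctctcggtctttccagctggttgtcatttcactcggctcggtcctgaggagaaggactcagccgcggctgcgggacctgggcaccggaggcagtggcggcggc
Tent5c: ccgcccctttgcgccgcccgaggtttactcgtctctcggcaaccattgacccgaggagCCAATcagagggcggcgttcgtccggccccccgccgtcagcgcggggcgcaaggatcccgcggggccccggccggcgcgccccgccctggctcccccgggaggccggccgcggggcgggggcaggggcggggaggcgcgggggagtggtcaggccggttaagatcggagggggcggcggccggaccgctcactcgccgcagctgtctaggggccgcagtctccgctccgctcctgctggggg
The Cpeb4 window held 2 matches to CACCC and 1 to CCAAT, and the Tent5c window held 1 match to CCAAT. Over all 32851 RefSeq windows, 57.5% held CACCC, 37.4% held CCAAT and 18.6% held a GATA motif. Neither window held AGATAA or TGATAA.

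Pabpc4 stood apart in its first transcribed bases, which are shown because poly(A)-binding proteins bind runs of A. Of its first 50 transcribed bases 74% were A, a share reached by 2 of the 32851 windows, Pabpc4 included. These bases count from the RefSeq start, which lies within the GENCODE gene and not at its first base. The last 30 bases of that window (chr4:123282931-123282960, plus strand) hold 22 A, given in capitals.
Pabpc4: AAgcAAAAgggAAAAAAAgAAgAAAAAgAA
The corresponding share was 12% in Cpeb4 and 6% in Tent5c, and Pabpc1 had no matched window to compare.

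The 3′ UTRs were searched on the transcribed strand for the cytoplasmic polyadenylation element letters TTTTAT and TTTTAAT. The 3′ UTR of Cpeb4, 4105 bases in its longest basic GENCODE transcript, held 17 of them, or 4.14 per 1000 bases. Among 10194 genes with a 3′ UTR of at least 1000 bases, 2.28% had as many per 1000 bases. The Tent5c 3′ UTR is of similar length (4209 bases) and held 1, or 0.238 per 1000 bases, a density reached by 82.5% of those genes. Pabpc1 and Pabpc4 each held 1 in 3′ UTRs of 442 and 428 bases. The sites below are those nearest before an AATAAA polyadenylation signal in Cpeb4 (chr11:31933750-31933779, plus strand) and the only site of Tent5c (chr3:100471278-100471307, minus strand), with the element in capitals.
Cpeb4: ttcattTTTTAATataaataattttaataa
Tent5c: cccaccTTTTAATtggaagccctttatgca
In Cpeb4, 12 bases separated the element from the signal, at 1879 bases before the annotated end of the transcript, and a further TTTTAAT left in lower case follows it. In Tent5c 3209 bases separated element and signal. A match of these letters is a description and not a shown binding site.

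Erythroid-like cells, named from markers of clusters made without the members, numbered 7834 in the control and 6476 in the DKO. They were split by the share of each cell's UMIs that came from hemoglobin genes, which stands here for maturity. The limits were 15%, 40%, 75% and 90%, and 17.7% of control and 15.9% of DKO erythroid-like cells lay within 1 point of a limit. Late erythroid-like cells, at 75% or more, numbered 5047 and 4041. In them Alas2, the first enzyme of erythroid heme synthesis, was at 1451 and 1470 CPM. Klf1, a transcription factor of earlier erythroid cells, was at 5.75 and 4.73 CPM there, against 279 and 273 CPM below 15%. The leukocyte marker Ptprc was at 6.98 and 2.41 CPM in late cells, the B cell marker Cd79a at 2.36 and 1.11 and the neutrophil marker S100a8 at 262 and 105. None of the 3 was at 0, and their part in the values was not tested. The libraries differed in how mature the late cells were. Hemoglobin made up 87.5% of late control and 89.8% of late DKO UMIs, and the control had 3643 cells at 75 to 90% and 1404 at 90% or more, against 1418 and 2623 in the DKO. DKO late cells also held more UMIs each (median 8029 against 5416), so UMIs per cell mix depth with RNA content, which cannot be told apart. Because hemoglobin takes up most late UMIs, each level is given as CPM over all UMIs and, where named so, as CPM over UMIs outside hemoglobin genes.

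Cpeb4 was highest in the middle of maturation and nearly gone at its end. In control cells it was at 248 CPM below 15% hemoglobin, 340 at 15 to 40%, 449 at 40 to 75%, 65.8 at 75 to 90% and 11.7 at 90% or more. In DKO cells the same stages held 269, 452, 643, 219 and 19.1 CPM. The 40 to 75% stage was highest in both libraries, and no counting intervals of neighbouring stages overlapped in either. As CPM over UMIs outside hemoglobin genes, in windows of 5 points, the peak stood at 65 to 70% in the control (1687) and at 70 to 75% in the DKO (2966). At 90 to 95% the same quantity was 141 and 266. The label late erythroid thus fits Cpeb4 only in part, since its level had passed its peak by the late stage. In the control, late cells were at -2.28 log2 against cells below 15% when scaled to all UMIs (95% interval -2.38 to -2.17) and at +0.66 (0.55 to 0.76) when scaled outside hemoglobin, so the direction turns with the scale.

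**Figure D1:**
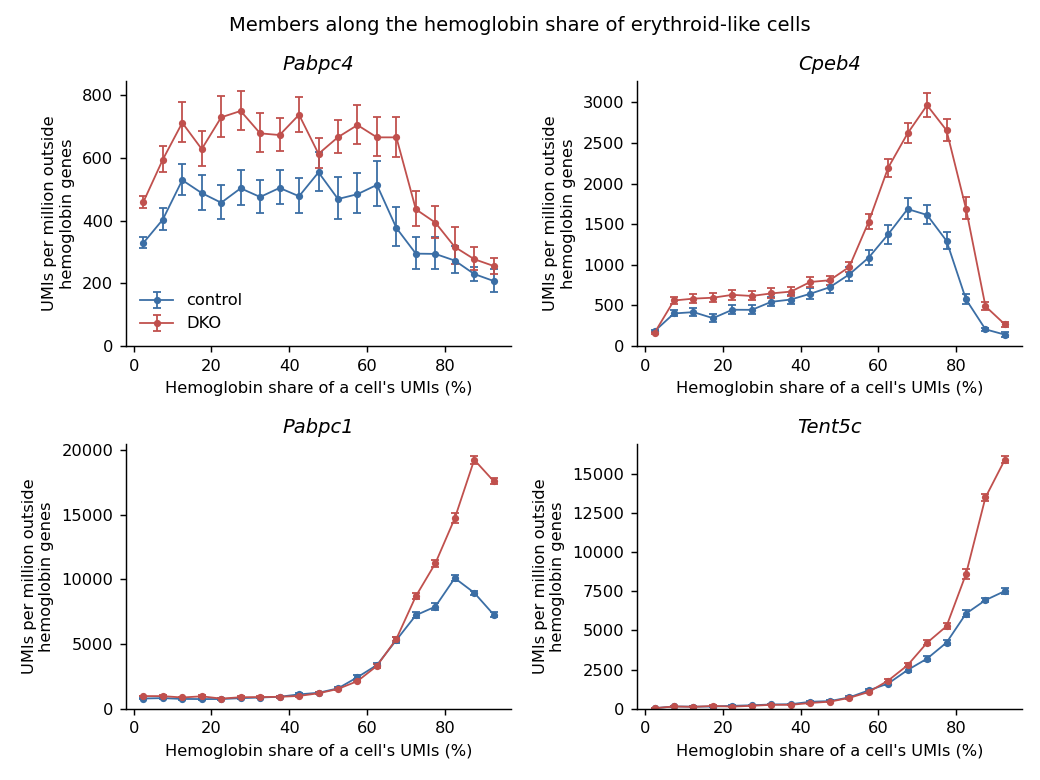
Level of each member, in CPM over UMIs outside hemoglobin genes, against the hemoglobin share of a cell's UMIs in 5-point windows of erythroid-like cells up to 95%, with control in blue, DKO in red and bars for exact 95% Poisson intervals. Pabpc4 was lower at the right end than in the middle, Cpeb4 peaked between 65% and 75%, and Pabpc1 and Tent5c were at their highest beyond 80% in both libraries.

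Tent5c was lowest in the least mature stage and, outside hemoglobin genes, highest in the most mature one. In control cells it stood at 73.3 CPM below 15%, 163 at 15 to 40%, 552 at 40 to 75%, 884 at 75 to 90% and 627 at 90% or more. The DKO values were 63.0, 147, 580, 1480 and 1179 CPM. Both libraries were highest at 75 to 90% on this scale. Outside hemoglobin genes the highest stage was the last one, with 7477 CPM over those UMIs in the control and 15931 in the DKO. Late over early in the control was +3.47 log2 on all UMIs (3.34 to 3.61) and +6.41 outside hemoglobin (6.28 to 6.55). Over the 5658 genes of at least 20 CPM in either stage, the median log2 ratio was -5.02 and -2.08 on the same scales. Tent5c thus lay above 99.9% of those genes. In background terms, 1.2% of genes were at least 1.5-fold higher in late cells on all UMIs and 7.58% outside hemoglobin, and Tent5c passed that size on both scales.

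Pabpc1 was present at every stage and, on all UMIs, fell again at the last one. Its control levels were 764, 594, 1225, 1269 and 608 CPM from the lowest to the highest hemoglobin stage. The DKO levels were 936, 643, 1199, 2373 and 1277 CPM. In both libraries it was lower at 15 to 40% than below 15% and highest at 75 to 90%. From there to 90% or more it moved by -1.06 log2 in the control, close to the median over all genes of -1.03. The same step in the DKO was -0.89, against a median of -1.70. Outside hemoglobin genes the 5-point peak stood at 80 to 85% in the control (10104 CPM over those UMIs) and at 85 to 90% in the DKO (19254). Late over early in the control was +0.52 log2 on all UMIs (0.47 to 0.56), just under the 1.5-fold size, and +3.45 outside hemoglobin (3.41 to 3.49).

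Pabpc4 went the other way, and the label late erythroid does not hold for it. Its control levels were 356 CPM below 15%, 348 at 15 to 40%, 189 at 40 to 75%, 35.1 at 75 to 90% and 17.2 at 90% or more. The DKO levels were 490, 492, 273, 48.9 and 18.4 CPM. On all UMIs, in each library the counting intervals of the lowest 2 hemoglobin stages overlapped, and later stages were successively lower. Outside hemoglobin genes Pabpc4 rose at 15 to 40%, by +0.39 log2 in the control (0.30 to 0.48) and +0.44 in the DKO. At 40 to 75% it was at -0.08 against that stage in the control (-0.19 to 0.02) and -0.09 in the DKO (-0.16 to -0.01). On this scale its narrow-window peak stood at 45 to 50% in the control and at 25 to 30% in the DKO. Late over early in the control was -3.55 log2 on all UMIs (-3.67 to -3.44) and -0.62 outside hemoglobin (-0.73 to -0.50). The median over all genes was lower still on both scales, and Pabpc4 lay above 83.1% of the genes.

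The stage below 15% hemoglobin mixed several kinds of cell. Clusters named by early erythroid markers gave Cpeb4 levels that differed widely among themselves. The cluster led by Car1, an erythroid carbonic anhydrase, was at 13.5 CPM in the control and 14.1 in the DKO. The cluster led by Hist1h3c, a replication-dependent histone gene, was at 131 and 155 CPM, and the cluster led by Tmem56 was at 338 and 388 CPM. The stage also held 170 control and 80 DKO cells of a cluster named by late erythroid markers. Like the Car1-led cells of this stage (median 994 and 1023.5 UMIs, 1.45% and 1.13% hemoglobin), these cells had few UMIs (median 949.5 and 1233.5) and little hemoglobin (5.91% and 8.03% of UMIs). Their Cpeb4 level was 3123 CPM in the control (95% interval 2893 to 3366) and 3757 in the DKO (3449 to 4086). Tent5c was at 1161 and 1140 CPM in them and Pabpc1 at 2414 and 2129. Malat1, an RNA retained in the nucleus, stood at 31278 and 18539 CPM in these cells, against 548 to 5213 CPM in the cells of the 3 early-marker clusters. What these droplets hold was not tested. With the early stage taken from the 3 clusters of early markers alone, late over early in the control was -1.53 for Cpeb4 and +4.52 for Tent5c on all UMIs.

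Shares of late cells with at least 1 UMI followed the levels. Unthinned, 16.2% of control and 23.4% of DKO late cells held a Cpeb4 UMI, and for Tent5c 93.4% and 97.4% did. When each cell of at least 2000 UMIs was thinned to 2000, which left out 91 control and 133 DKO late cells, Cpeb4 was found in 7.69% (95% Clopper-Pearson 6.96 to 8.46) and 11.2% (10.2 to 12.2) of them. The thinned shares were 76.7% and 88.6% for Tent5c, 76.6% and 85.0% for Pabpc1, and 5.93% and 5.50% for Pabpc4. Pabpc4 had unthinned shares of 14.4% and 18.96% and was thus on opposite sides before and after thinning, where its intervals overlapped. The lowest thinned shares of any class, in control and DKO, were 5% and 5.88% for Cpeb4, 2.81% and 1.63% for Pabpc4, 2.91% and 1.99% for Tent5c and 35% and 28.9% for Pabpc1. Cpeb4 at 90% hemoglobin or more was at 2.27% and 3.82%, below its lowest class shares. RNA free in the droplets could set part of the low values. Going by the neutrophil gene Ngp, at most 8.35% of late control Cpeb4 UMIs, 18.5% of Pabpc4, 3.50% of Pabpc1 and 0.673% of Tent5c could be free RNA. At 90% hemoglobin or more the bound was 31.8% for Cpeb4 and 28.2% for Pabpc4. The DKO table lists called cells alone, so no such bound was computed for it.

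The contrast that chose the members, DKO over control in late erythroid-like cells, is described next with no test. Cpeb4 had 1410 control and 3016 DKO UMIs, or 51.3 and 90.9 CPM, a log2 ratio of +0.82 (0.73 to 0.92). Of these UMIs, 617 in the control and 1585 in the DKO came from the 342 and 278 cells at 75 to 80% hemoglobin, the least mature of the late cells. Tent5c was at 815 and 1287 CPM, a log2 ratio of +0.66 (0.64 to 0.68). Pabpc1 was at 1092 and 1671 CPM (+0.61, 0.59 to 0.63). Pabpc4 was at 30.3 and 29.3 CPM, and its interval spanned no difference (-0.05, -0.18 to 0.09). Thus 3 of the 4 members were at least 1.5-fold higher in the DKO, as were 6.84% of the 599 genes of at least 20 CPM, while 34.7% were at least 1.5-fold lower and the median was -0.33. With the late stage taken from 50% hemoglobin, Tent5c was at +0.56 and Pabpc1 at +0.49, both under the 1.5-fold size. In the same late cells and with scaling outside hemoglobin, the ratios were +1.13, +0.96, +0.92 and +0.25 in the same order, the median was -0.03, and 20.2% of genes were higher and 24.2% lower by that size. Pabpc4 therefore changes sign with the scale.

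**Figure D2:**
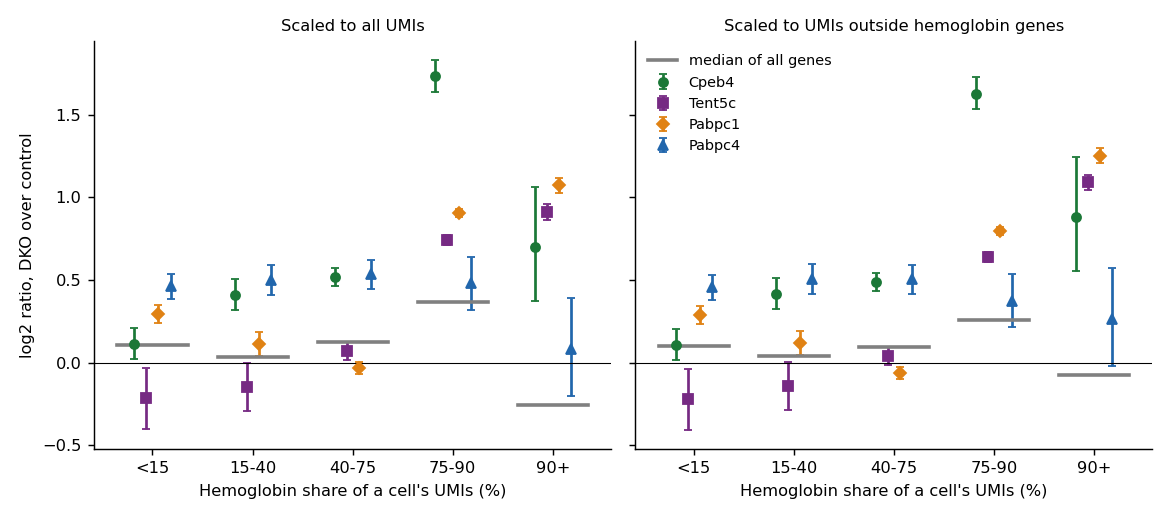
Log2 ratio of DKO over control for each member in the 5 hemoglobin stages of erythroid-like cells, scaled to all UMIs on the left and outside hemoglobin genes on the right, with exact conditional binomial 95% intervals as bars and the median of all genes of at least 20 CPM as grey lines. Cpeb4 was above the line of no difference at every stage and Pabpc4 at every stage below 90%, while Tent5c was below it or near it up to 75% and above it from there.

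By stage, on all UMIs, the members differed in where they stood above the control. Below 15% hemoglobin Cpeb4 was at +0.11 (0.02 to 0.21), close to the median over all genes of +0.11, with Tent5c at -0.22 (-0.40 to -0.03), Pabpc1 at +0.29 and Pabpc4 at +0.46. The low-UMI cells of the late-marker cluster described above made up unequal parts of this stage in the libraries. In the 803 control and 606 DKO cells of the 3 early-marker clusters alone, Tent5c turned to +0.24 with an interval that spanned no difference (-0.02 to 0.50). Cpeb4 was at +0.43 (0.31 to 0.55) there, Pabpc1 at +0.37 and Pabpc4 at +0.45, with a median of +0.11. At 40 to 75% Cpeb4 and Pabpc4 were at +0.52 (0.46 to 0.57) and +0.53 (0.45 to 0.62), against a median of +0.13. Tent5c and Pabpc1 lay under that median, at +0.07 (0.02 to 0.12) and -0.03 (-0.07 to 0.01). At 75 to 90% Cpeb4 was at +1.73 (1.64 to 1.83), Tent5c at +0.74, Pabpc1 at +0.90 and Pabpc4 at +0.48, with a median of +0.36. At 90% or more Tent5c was at +0.91, Pabpc1 at +1.07, Cpeb4 at +0.70 (0.37 to 1.07) and Pabpc4 at +0.08, with a median of -0.26. No difference between stages was tested.

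Hemoglobin content was matched more closely by 5-point windows, with levels taken outside hemoglobin genes. Pabpc4 was higher in the DKO in 20 of 20 windows and Cpeb4 in 19, and for each of them the Poisson intervals of the libraries were apart in 14. The window from 95% held only 29 control cells, with 0 UMIs of Cpeb4 and 0 of Pabpc4. Tent5c was higher in the DKO in 10 windows and Pabpc1 in 14. The windows from 75% hold the late cells whose values chose the members, so these tallies are not independent of that choice. In the 4 windows from 75% to 95%, the log2 ratio of DKO over control ran from 0.92 to 1.56 for Cpeb4, from 0.32 to 1.08 for Tent5c, from 0.51 to 1.27 for Pabpc1 and from 0.21 to 0.42 for Pabpc4. With DKO cells reweighted to the control's distribution of hemoglobin shares, the late ratios on all UMIs were +1.28 for Cpeb4, +0.83 for Tent5c, +0.95 for Pabpc1 and +0.28 for Pabpc4. No median over all genes was computed for these windows or after the reweighting, so a shift common to most genes is not set apart. By stage on all UMIs that median was +0.36 at 75 to 90% hemoglobin and negative at 90% or more.

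Within clusters of like cells, chosen for display after values were seen, the Cpeb4 ratio depended on the scale. In the cluster led by Xpo7, with 65.7% and 68.8% of UMIs from hemoglobin, Cpeb4 was at 613 CPM in the control and 857 in the DKO (+0.48, 0.43 to 0.54). In the most mature clusters it was low in both libraries. The Isg15-led cluster had 21.5 and 21.6 CPM (+0.01, -0.28 to 0.30), and the cluster led by Hba-a2 and then Bpgm had 22.4 and 22.6 CPM (+0.01, -0.42 to 0.46). In each of the 5 clusters at 83% hemoglobin or more, the Cpeb4 interval spanned no difference on all UMIs. Scaled outside hemoglobin genes, however, Cpeb4 was higher in the DKO in each of these 5, by log2 ratios of 0.40 to 0.76 with no interval reaching 0, so its reading turns with the scale. On all UMIs in those 5 clusters Tent5c was higher in the DKO by log2 ratios of 0.60 to 0.71 and Pabpc1 by 0.47 to 0.76, with no interval reaching no difference. Pabpc4 was at ratios of -0.37 to -0.04 there on all UMIs and 0.06 to 0.30 outside hemoglobin genes, each interval spanning no difference on either scale. The cluster led by Isg15, an interferon-inducible gene, held 2222 control and 863 DKO cells and Isg15 at 1017 and 585 CPM. Isg15 was not particular to it, at 1256 and 536 CPM in the Xpo7-led cluster and 994 and 279 in the Trim10-led one. In the other clusters at 83% hemoglobin or more it was at most 1.60 CPM. Without the Isg15-led cluster, and with the Xpo7-led and Trim10-led clusters kept, the late ratio of Cpeb4 was +0.53 and that of Pabpc1 +0.55. Both were under the 1.5-fold size, while Tent5c was at +0.65. The part of Isg15 in these ratios was not tested.

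**Figure D3:**
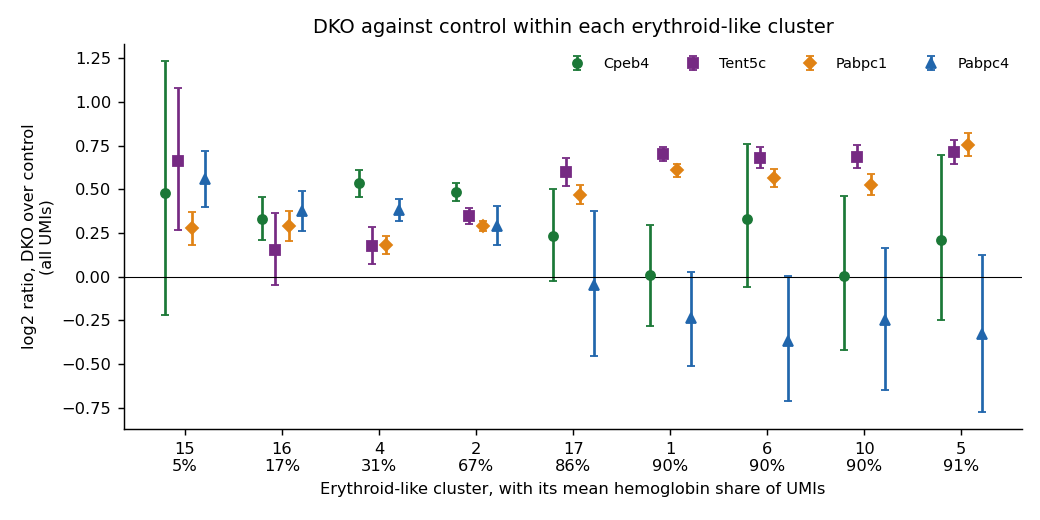
Log2 ratio of DKO over control on all UMIs for each member within each erythroid-like cluster, ordered by mean hemoglobin share, with exact conditional binomial 95% intervals. In the 5 clusters on the right Tent5c and Pabpc1 lay above 0 and the Cpeb4 and Pabpc4 intervals spanned it.

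Outside the erythroid cells each member had its own order of levels, in CPM. Cpeb4 was highest in megakaryocyte-like cells (247 control, 211 DKO), followed by neutrophil-like (119 and 160), macrophage-like (104 and 114) and stromal or endothelial-like cells (99.7 and 104). The last 3 did not differ beyond their counting intervals in the control. Its lowest level was in granulocyte-monocyte progenitor-like cells in the control (24.9) and in plasma-like cells in the DKO (25.0). Tent5c was highest in plasma-like cells, at 408 CPM (365 to 454) in 44 control cells and 327 (290 to 367) in 52 DKO cells. Hemoglobin made up 2.06% and 0.948% of UMIs there, so late erythroid RNA carried in with all that hemoglobin would give 19.2 and 13.6 CPM of Tent5c. In macrophage-like cells, by contrast, carried-in erythroid RNA would give 160 and 201 of the 182 and 218 CPM of Tent5c, and in megakaryocyte-like cells 143 and 124 of 153 and 160. Tent5c was lowest in granulocyte-monocyte progenitor-like cells (19.2 and 18.0).

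Pabpc1 was highest outside the erythroid cells in basophil or mast-like cells (876 and 1041 CPM) and in granulocyte-monocyte progenitor-like cells (814 and 984). It was lowest in plasma-like cells (212 and 156), with neutrophil-like cells next (340 and 397). Pabpc4 in the control was highest in granulocyte-monocyte progenitor-like cells (86.7) and basophil or mast-like cells (79.7), whose intervals overlapped, and lowest in neutrophil-like cells (18.2). In the DKO it was at 102 CPM in stromal or endothelial-like cells from 40 UMIs in 8 cells, with an interval of 72.8 to 139 that overlapped those of granulocyte-monocyte progenitor-like (95.3) and basophil or mast-like cells (92.4). The lowest DKO level was again in neutrophil-like cells (14.996).

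**Figure D4:**
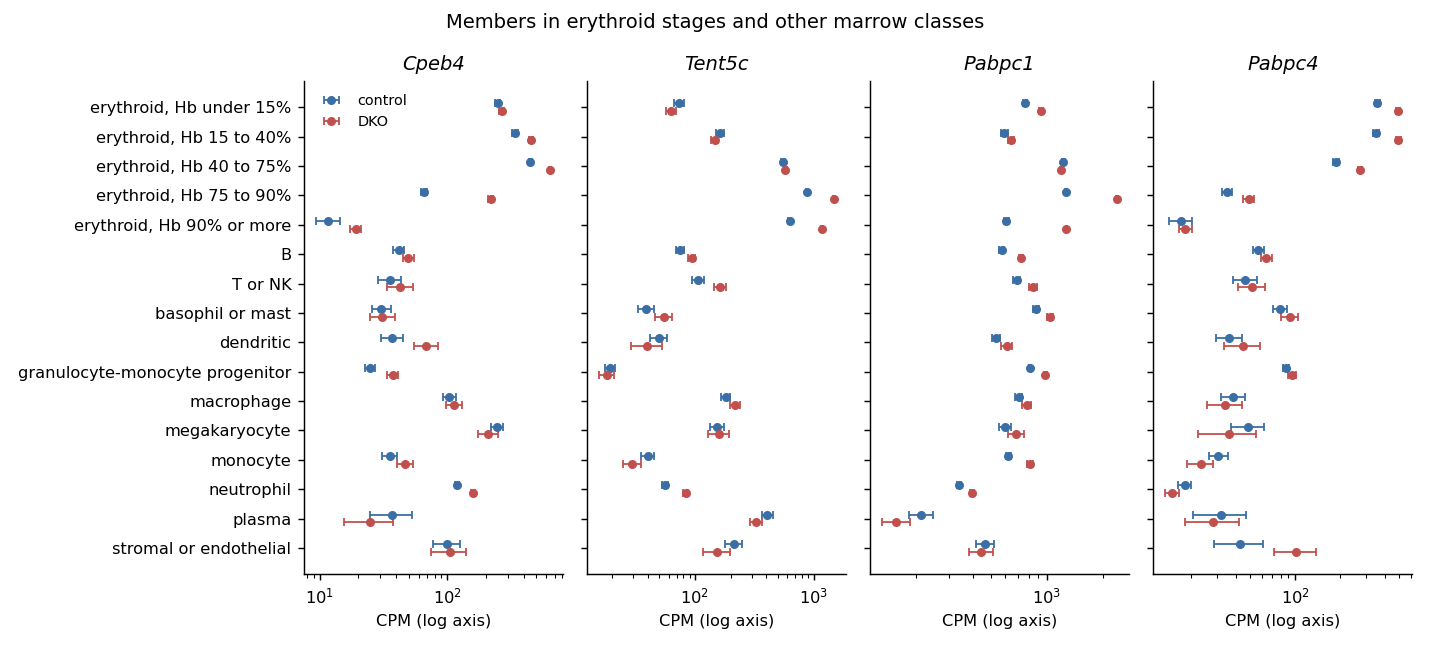
Level of each member in CPM, on a log axis, in the 5 hemoglobin stages of erythroid-like cells and the 11 other named marrow classes, with control in blue, DKO in red and bars for exact 95% Poisson intervals. Cpeb4 was highest at 40 to 75% hemoglobin, Tent5c and Pabpc1 at 75 to 90% and Pabpc4 below 40%, and among the other classes Tent5c was highest in plasma-like cells.

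Outside the erythroid cells, neutrophil-like cells were the most numerous. In them, on all UMIs, Cpeb4 was at +0.43 log2 (0.36 to 0.50), Tent5c at +0.59 (0.49 to 0.70), Pabpc1 at +0.22 (0.18 to 0.27) and Pabpc4 at -0.28 (-0.49 to -0.07), with a median over all genes of +0.15. Late erythroid RNA carried in with the hemoglobin of these cells would give 39.4 of the 55.5 CPM of Tent5c in the control and 62.9 of 83.6 in the DKO, and its part in the Tent5c ratio was not tested. Scaled outside hemoglobin, over the 5 erythroid stages and 11 other classes, the interval lay above no difference in 10 of 16 for Cpeb4, 7 for Tent5c, 11 for Pabpc1 and 6 for Pabpc4. It lay below in 1, 4, 3 and 2. The median over all genes ran from -0.19 to 0.26 in these classes and stages. Against that median, the interval lay above in 7 for Cpeb4, 6 for Tent5c, 10 for Pabpc1 and 5 for Pabpc4, and below in 1, 6, 2 and 2.

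A wider list of 77 genes of poly(A) tail addition, binding and removal, all in the count tables, was examined in late erythroid-like cells. Only 8 of them reached 20 CPM in either library: the 4 members, Cpeb3, Tut7, Paip2 and Btg2. Of all 32285 genes 599 did, since hemoglobin took up most late UMIs, so few genes of any kind passed this minimum. None of the 3 nuclear poly(A) polymerases, 19 deadenylase genes or 16 cleavage and polyadenylation genes did. The list was drawn up with results of these data known. In it 4 genes were at least 1.5-fold higher in the DKO and 0 were lower, with a median log2 ratio of +0.58 beside -0.33 over all 599 genes, of which 6.84% were higher and 34.7% lower by that size. Of those 4, 3 are members chosen for that direction, and the other is Cpeb3, a relative of Cpeb4, with 390 and 1031 UMIs (14.2 and 31.1 CPM, +1.13, 0.96 to 1.30). Cpeb3 reached the 20 CPM minimum in the DKO library alone, so its place in this count rests on the library where it was higher. Tut7, a terminal uridylyltransferase, was at 31.8 and 46.8 CPM (+0.55, 0.43 to 0.68). Btg2, which recruits deadenylases, was at 29.3 and 35.8 CPM (+0.29). Paip2, an inhibitor of poly(A)-binding protein, was at 60.9 and 42.3 CPM (-0.53, -0.63 to -0.42). Scaled outside hemoglobin, 6 genes were higher and 0 lower by 1.5-fold, with a median of +0.89, beside 20.2% of all genes higher and 24.2% lower. Cpeb4, Tent5c, Pabpc1 and Cpeb3 are among these 6. Both list medians, +0.58 and +0.89, include the 4 members chosen on this contrast, so nothing is read from them beside the all-gene values.

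**Figure D5:**
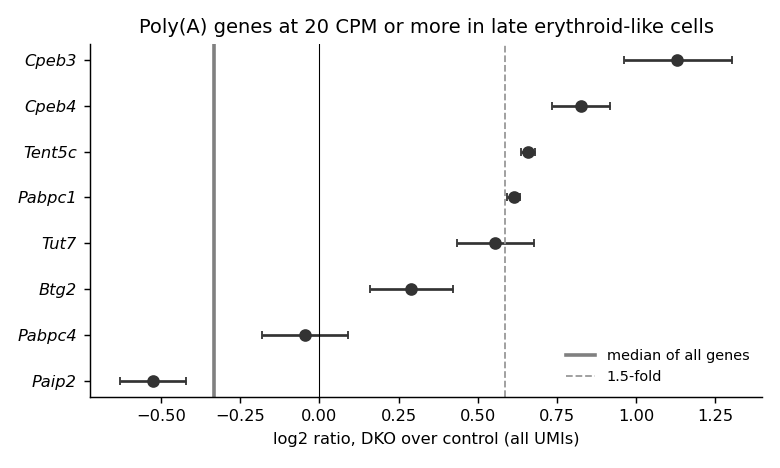
Log2 ratio of DKO over control, scaled to all UMIs, for the 8 genes of the poly(A) list at 20 CPM or more in late erythroid-like cells, with exact conditional binomial 95% intervals, the median of all 599 genes as a grey line and the 1.5-fold size as a dashed line. Cpeb3, Cpeb4, Tent5c and Pabpc1 lie right of the dashed line, and Paip2 lies furthest left.

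Likeness of pattern was measured as Pearson's r of log2(CPM + 5) over 31 profiles, each an erythroid stage or another class with 50 or more cells in 1 library. It was taken for the 11129 genes that reached 20 CPM somewhere among them. The profiles come from 2 libraries and share their depth and free RNA, so the values are descriptions. For Cpeb4 the nearest genes were Narf (0.92), Usp32 (0.92), Foxo3 (0.89), Crat (0.88) and Slc22a23 (0.88). Foxo3 is a transcription factor active in erythroid maturation, and Usp32 is a deubiquitinase. For Tent5c they were Hba-a2 (0.87), Hba-a1 (0.86), Hbq1a (0.86), Hbb-bs (0.85) and Gabarapl2 (0.84), of which the first 4 are globin genes and the last encodes an autophagy protein. Nearness to globin genes was in part set in advance, because the erythroid profiles were cut by hemoglobin share. Carried-in late erythroid RNA would also give 65.6 of the 74.8 CPM of Tent5c in control B-like cells, though only 13.6 of 327 in DKO plasma-like cells. For Pabpc1 they were Psme3 (0.77), Hscb (0.75), Snx15 (0.70), Ube2r2 (0.69) and Cat (0.69). Psme3 is a proteasome activator and Cat encodes catalase. Pabpc4 was nearest to Alad (0.95), an enzyme of heme synthesis, then Fbxo7 (0.94), Psmf1 (0.94), Orc1 (0.94) and Ifrd2 (0.94). Among the members themselves r was 0.61 for Cpeb4 with Pabpc4 and -0.09 for Tent5c with Pabpc4. The median r over all genes was -0.06 for Cpeb4, -0.64 for Tent5c, -0.25 for Pabpc1 and 0.04 for Pabpc4.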

How the data were processed

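Single-cell RNA of mouse bone marrow was analysed from 1 control and 1 DKO library, and the number of mice in each is not given in the sources used here. The deposited matrices hold raw UMI counts per gene and barcode that the authors made with Cell Ranger (version 7.1.0 in the file headers) on mm10, as the submitters' processing notes list. The control matrix listed 1518290 barcodes, and the DKO matrix listed 14142, all of at least 500 UMIs. Control cells were called as those of at least 4869 UMIs plus barcodes of 500 UMIs or more that differed from barcodes of at most 100 UMIs (Monte Carlo multinomial test, 10000 draws, false discovery rate 1%). This test is one-sided and left out 379 control barcodes with a late hemoglobin share, all of at most 2433 UMIs. Cells of over 20% mitochondrial UMIs (171 and 215) and doublets marked by Scrublet in scanpy 1.11.5 at the DKO threshold (341 and 198) were left out. Clustering used 2000 variable genes without the members, the poly(A) list, Ddx41 and Cgas, 30 components, 15 neighbours and Leiden resolution 1.0 (leidenalg 0.10.2), and classes were named from marker lists, so names were rebuilt here. Doublets could remain. Free RNA was taken from the barcodes of at most 100 UMIs.

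Counts were summed per library and class or stage, scaled to CPM and compared as log2 ratios with 1 UMI added, for genes of at least 20 CPM in either sum. The members, Ddx41 and Cgas are given whatever their level. Intervals are exact (Poisson, Clopper-Pearson, conditional binomial, 95%, scipy 1.17.1) and cover counting error only. The ratio and its interval were run on counts simulated with Poisson error alone, so that run does not bear on spread between cells or mice. With 1 library per group no test was made, and called means at least 1.5-fold. Members, lists and stages were chosen with earlier results of these data known. The genes named were the members in every class, Ddx41 and Cgas, list genes at 20 CPM or more in late cells (those past 1.5-fold, otherwise the highest of each group) and the 5 genes most alike in pattern to each member, and the low-hemoglobin cells of the late cluster, the cluster comparisons and the genes that go with them were singled out after values were seen. GENCODE M21 held 32235 of the 32285 identifiers. The Pabpc1 promoter was not used here.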

Additional observations from a re-analysis of the deposited data

Results flagged for a closer look

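A few classes went against the direction seen where each member was higher in the DKO, with counting intervals apart from no difference and levels scaled outside hemoglobin genes. With 1 library per group these differences between classes were not tested. Cpeb4 was lower in DKO megakaryocyte-like cells (log2 ratio -0.33), from 322 control and 129 DKO UMIs. Hemoglobin made up 15.3% of control and 8.63% of DKO UMIs in that class, and on all UMIs the Cpeb4 ratio was -0.22 with an interval that spanned no difference (-0.54 to 0.07). Tent5c was lower in DKO erythroid-like cells below 15% hemoglobin (-0.22), monocyte-like cells (-0.45), plasma-like cells (-0.33) and stromal or endothelial-like cells (-0.67). The value below 15% hemoglobin turned to 0.23 (-0.02 to 0.49) in the cells of the 3 early-marker clusters alone, an alternative chosen after seeing the data. Tent5c in monocyte-like cells was at 40.2 CPM in the control and 29.7 in the DKO, and carried-in late erythroid RNA would give 31.8 and 29.8. Hemoglobin made up 20.5% of control and 8.40% of DKO UMIs in the stromal or endothelial-like class. The part of carried-in erythroid RNA in the ratios of these 2 classes was not tested. Pabpc1 was lower in the 40 to 75% hemoglobin stage (-0.060), in plasma-like cells (-0.46) and in stromal or endothelial-like cells (-0.27). On all UMIs the Pabpc1 interval spanned no difference at 40 to 75% (-0.03, -0.07 to 0.01) and in stromal or endothelial-like cells (-0.07, -0.34 to 0.20). Pabpc4 was lower in monocyte-like cells (-0.41) and in neutrophil-like cells (-0.27), where it was under 20 CPM in both libraries.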

How the results depend on the processing

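No paired analysis was possible because each group has 1 library, and for the same reason no library could be left out. Over 12 alternatives of the late DKO over control log2 ratio, Cpeb4 ran from 0.53 to 1.28, Tent5c from 0.56 to 0.99, Pabpc1 from 0.49 to 0.96 and Pabpc4 from -0.08 to 0.54. Cpeb4, Tent5c, Pabpc1 and Pabpc4 were, in that order, at 1.13, 0.96, 0.92 and 0.25 when scaled outside hemoglobin genes, at 1.16, 0.99, 0.95 and 0.29 with median-of-ratios scaling, and at 1.28, 0.83, 0.95 and 0.28 when matched on hemoglobin share. Of the alternatives chosen after seeing the data, scaling outside hemoglobin and ribosomal protein genes gave 1.10, 0.93, 0.89 and 0.23, and matching with scaling outside hemoglobin gave 1.28, 0.84, 0.96 and 0.29. Pabpc4 turned positive under these 5. It also did with the late stage taken from 50% hemoglobin (0.54), where Tent5c (0.56) and Pabpc1 (0.49) were no longer past 1.5-fold. Without the Isg15-led cluster, also chosen after seeing the data, Cpeb4 was at 0.53 and Pabpc1 at 0.55, both under 1.5-fold. Every control droplet of 500 UMIs or more gave 0.84, 0.66, 0.61 and -0.06.

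Late over early in the control turned for Cpeb4 when scaled outside hemoglobin (0.66), with Tent5c at 6.41, Pabpc1 at 3.45 and Pabpc4 at -0.62. A minimum of 2000 UMIs gave Cpeb4 -1.51, Tent5c 4.42 and Pabpc1 0.65. A late stage from 50% gave Cpeb4 -0.97, Pabpc1 0.59 and Pabpc4 -2.77. Leaving out the Car1-led early-marker cluster, with a median of 999 UMIs per cell, gave -2.74, 3.07, 0.59 and -3.68 for the members in the first order. An early stage from early-marker clusters alone gave Cpeb4 -1.53, Tent5c 4.52 and Pabpc1 0.63. Both settings were chosen after seeing the data. The same early-marker clusters turned the DKO over control ratio of Tent5c below 15% hemoglobin from -0.22 to 0.24. The cause of these moves was not tested. With no minimum on low counts, 7 genes of the poly(A) list were higher and 43 lower, in place of 4 and 0. Depth limits Cpeb4 and Pabpc4 most at 90% hemoglobin or more, where the control held 86 and 127 UMIs.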
